A study of Mus musculus with 26 samples.

Results

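Etv5 and 8 other genes of the FGF-ERK pathway were followed through single retinal cells from a Notch1 knockout experiment. The genes are the transcription factors Etv5 and Etv4, the feedback inhibitors Spry1, Spry2, Spred1, Dusp6 and Dusp4, the ERK-induced gene Phlda1 and the ligand Fgf15. They are 9 of the 18193 genes named on the array and have 20 of its 45101 probe sets. The list was drawn up after earlier results of these cells were known, among them the difference of Etv5, so that differences between the groups are given as descriptions. All mice were homozygous for a floxed Notch1 allele on a C57BL/6 background. Plasmids were electroporated into the retina on postnatal day 0, and the cells were taken on postnatal day 3. The 13 control cells (WT) came from retinas that received CAG:GFP, which drives GFP from a broadly active promoter, and no Cre. The 13 knockout cells (N1-CKO) came from retinas that received CAG:Cre with CALNL-GFP, a reporter that Cre switches on. GFP-positive cells were picked by hand after dissociation and profiled with 1 cell per array. The labels name no animal or litter, each group therefore stands as 1 sample, and no test between the groups was made.

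FGF ligands bind receptor tyrosine kinases at the cell surface and activate RAS, RAF, MEK and finally ERK, a kinase that enters the nucleus. ERK activity induces the ETS factors Etv4 and Etv5, which are widely used as transcriptional readouts of the pathway, and also its own inhibitors. Sprouty and Spred proteins act at the level of RAS and RAF, and the phosphatases Dusp6 and Dusp4 remove phosphate from ERK and related kinases. In the retina, FGF signalling is known for its roles in the specification of the neural retina and in early progenitors, and Fgf15 is expressed by dividing retinal progenitors.

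The promoters are shown for the members with the largest negative differences that have an entry in RefSeq's table for build GRCm38.p6, namely Etv5 with 2 annotated starts and Spry1. Each window runs from 250 bases before to 50 bases after the start, 5′ to 3′ on the strand of the gene. The windows of Etv5 lie on the minus strand at chr16:22439521-22439820 (upstream start) and chr16:22438319-22438618 (downstream start), and that of Spry1 on the plus strand at chr3:37639697-37639996. Capitals mark matches to TGGGAA, the core letters of the site bound by RBPJ, the DNA-binding partner of Notch, or to CCGGAA, the core letters of an ETS site, on either strand. The 2 motifs end in the same letters but cannot lie at the same place.
Etv5 upstream start: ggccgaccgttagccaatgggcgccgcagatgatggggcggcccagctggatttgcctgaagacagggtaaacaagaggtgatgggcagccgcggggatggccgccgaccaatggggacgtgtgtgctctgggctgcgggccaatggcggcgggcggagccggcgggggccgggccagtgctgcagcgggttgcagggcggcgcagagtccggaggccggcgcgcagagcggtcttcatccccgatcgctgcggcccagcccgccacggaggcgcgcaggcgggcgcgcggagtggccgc
Etv5 downstream start: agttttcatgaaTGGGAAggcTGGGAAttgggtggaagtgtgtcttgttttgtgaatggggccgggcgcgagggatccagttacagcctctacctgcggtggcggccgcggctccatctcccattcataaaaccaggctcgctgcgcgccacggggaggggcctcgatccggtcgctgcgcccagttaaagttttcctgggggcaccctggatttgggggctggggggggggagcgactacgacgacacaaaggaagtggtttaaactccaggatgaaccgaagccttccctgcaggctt
Spry1: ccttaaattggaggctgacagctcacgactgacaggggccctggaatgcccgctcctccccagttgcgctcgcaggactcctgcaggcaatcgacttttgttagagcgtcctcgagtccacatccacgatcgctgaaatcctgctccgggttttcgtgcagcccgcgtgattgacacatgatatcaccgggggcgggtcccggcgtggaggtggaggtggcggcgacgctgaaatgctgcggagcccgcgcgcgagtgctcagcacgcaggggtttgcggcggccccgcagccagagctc
TGGGAA occurred in the downstream window of Etv5, beginning at positions -238 and -229 from the start, and in none of the other 5 windows of members. Of all 32851 promoter windows, 25.6% held it. CCGGAA occurred only in the window of Spry2, beginning at position 34, while 14.9% of all windows held it. Entries were found for 5 of the 9 members. A match to these letters is a description of the window and shows no binding.

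The deposited values are MAS5 signals, scaled so that every array has the same trimmed mean. Detection meant a signal at or above the 90th percentile of the array in question, a threshold that lay between 245 and 2409. Log2 signals were floored at 4.65. Threshold ranges overlapped, from 396 to 2409 in WT and from 245 to 2164 in N1-CKO cells. The arrays split by their 18S control signal into those with high 18S (5 WT and 5 N1-CKO cells, the high 18S set) and those with low 18S (8 and 8). The 3′ to 5′ ratio of the Gapdh control, which grows with degraded RNA or short cDNA, was above 3 in 2 WT and 5 N1-CKO cells, with medians of 1.79 and 2.67. Notch1 itself passed in 10 WT cells and in 8 of the knockout group, and where its probe set lies relative to the deleted part is not known here. Cells of both groups carried retinal transcripts: of 12 retinal progenitor genes, a median of 8 were detected in WT cells, with extremes of 4 and 12, and of 6 in N1-CKO cells, with extremes of 2 and 10. Of the 8 microglial genes 7 were detected in no cell, as were 6 of 8 pigment epithelium genes and 6 of 8 endothelial and mural genes. So were 4 of 7 bipolar, 4 of 7 retinal ganglion and 3 of 10 amacrine and horizontal genes. For scale, only 8280 of all 18193 genes were detected in at least 2 cells, so these counts alone do not identify the cells. Of the 2 endothelial and mural genes that were detected, Kdr, a VEGF receptor, was seen in 9 WT and 3 N1-CKO cells.

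Etv5 transcript was found in most WT cells and reached the detection threshold in no N1-CKO cell. In the 13 WT cells its log2 signal had a lowest value of 4.65, a median of 11.79 and a highest value of 14.71. In the 13 N1-CKO cells the lowest and the median were both 4.65, the floor, and the highest was 9.55. The transcript was detected in 10 WT cells, all but cells 3, 12 and 13, and these 10 lay above every N1-CKO cell, whereas the remaining 3 overlapped with them. This corresponds to 76.9% of WT cells (exact Clopper-Pearson 95% interval 46.2 to 94.96, counting error only) and to 0% of N1-CKO cells (interval 0 to 24.7). Means were 10.75 ± 3.40 (SD over 13 cells) and 5.30 ± 1.46, a difference of -5.45 that was larger than either SD. Of the N1-CKO values 10 lay at the floor, so the size of this difference depends on the floor. With N1-CKO values raised to at least their detection thresholds and WT values unchanged, the ratio of WT to N1-CKO cells was 1.70. For scale, the 244 genes detected in exactly 10 WT cells had a median of 9 N1-CKO cells. The difference of Etv5 was the 3rd lowest of 8280 genes, a rank given as a description because Etv5 was chosen for it. The brightest N1-CKO cell was cell 3, where Etv5 stood at the 87.6th percentile of its array and passed only when the limit was lowered to the 85th percentile.

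The difference of Etv5 was seen on both kinds of array. In the high 18S set it was detected in 4 of 5 WT and 0 of 5 N1-CKO cells, with a difference of -4.93, and in the low 18S set in 6 of 8 and 0 of 8, with a difference of -5.77. With arrays whose Gapdh ratio exceeded 3 left out, it was found in 9 of 11 WT and 0 of 8 N1-CKO cells, and the difference was -5.49. The signal rested on 1 of 3 probe sets. A further probe set, marked as shared between transcripts, gave 2 WT cells and 0 N1-CKO cells and differed by -1.93. The remaining one gave 1 and 0 cells and a difference of 0.24. Averaged over the 3 probe sets, Etv5 differed by -2.38. Cell state differed between the groups as well: the means of all 22 G2/M and mitosis genes detected in at least 2 cells were lower in the knockout group, and their median difference was -3.21. The 7 photoreceptor genes so detected had a median of 1.91, with 5 higher and 2 lower. Their part in the difference of Etv5 was not tested.

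Etv4, the close relative of Etv5 in the PEA3 group of ETS factors, was found in 4 WT and 0 N1-CKO cells. Its log2 signal had a lowest value of 4.65, a median of 6.29 and a highest value of 12.90 in WT cells, and of 4.65, 4.97 and 9.38 in N1-CKO cells. WT cells 8, 5, 2 and 3 stood above all N1-CKO cells and the other 9 WT cells overlapped with them. Means were 7.57 ± 3.37 and 5.50 ± 1.35 (SD over 13 cells), a difference of -2.07 that lay within the WT spread. It was -1.54 in the high and -2.40 in the low 18S set. A second probe set was detected in no cell and differed by -0.04. As for Etv5, the brightest N1-CKO cell was cell 3.

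**Figure D1:**
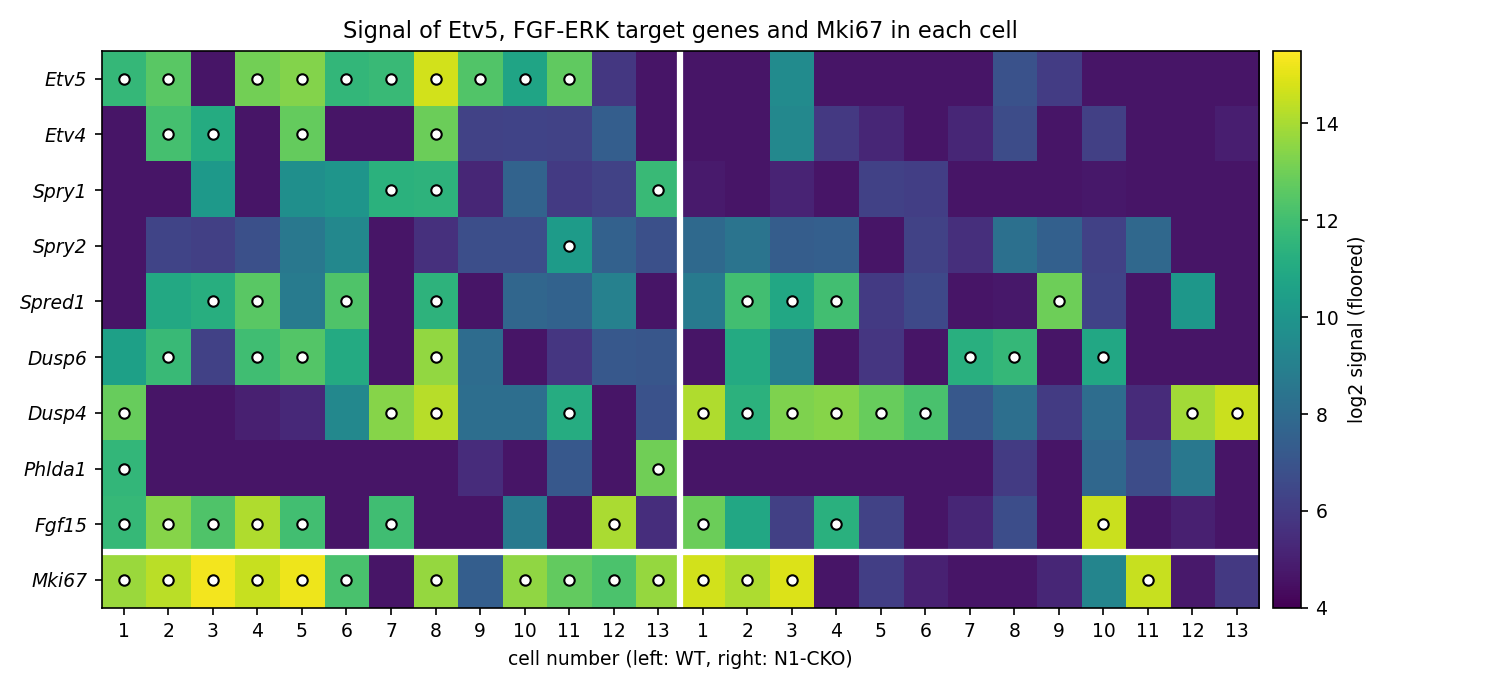
Log2 MAS5 signal (colour, floored at 4.65) of the 9 members and the proliferation gene Mki67 (rows) in each of 13 WT (left) and 13 N1-CKO cells (right); white circles mark cells in which the gene was detected. Etv5 carries 10 circles on the left and none on the right, whereas Dusp4 carries 4 and 8.

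Among the Sprouty and Spred inhibitors, Spry1 differed most between the groups. It was detected in 3 WT cells (7, 8 and 13) and in 0 N1-CKO cells. Log2 signals ran from 4.65 through a median of 7.66 to 11.78 in WT cells, and from 4.65 through 4.65 to 6.23 in N1-CKO cells. WT cells 3, 5, 6, 10 and 12 also lay above the highest N1-CKO cell but below their detection thresholds, and the other 5 WT cells overlapped with the knockout group. With the 85th percentile as the limit 6 WT and 0 N1-CKO cells counted as detected. The means of 7.97 ± 2.86 and 4.94 ± 0.57 differed by -3.03, more than either SD, with -2.54 in the high and -3.33 in the low 18S set. Of the N1-CKO values 8 lay at the floor, so the SD of 0.57 and the size of the difference depend on it. With N1-CKO values raised to at least their detection thresholds and WT values unchanged, the ratio of WT to N1-CKO cells was 0.25. These signals thus set no lower bound above 1 on the difference. The counts rest on the threshold, since 0 WT and 0 N1-CKO cells passed at the 95th percentile.

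Spry2 was near background in both groups and was detected in 1 WT cell only. Its log2 signal ranged from 4.65 to 10.32 in WT and from 4.65 to 8.43 in N1-CKO cells, and the means of 6.95 ± 1.68 and 6.68 ± 1.43 differed by -0.27. WT cells 5, 6 and 11 lay above the highest N1-CKO cell and the others overlapped with that group.

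Spred1, which holds RAF inactive, was carried by 8 probe sets that did not give 1 picture. The brightest over all cells was found in 4 WT and 4 N1-CKO cells, with means of 8.49 ± 3.08 and 8.01 ± 3.20 and a difference of -0.47. Another gave 4 and 2 cells and a difference of -1.89. Counting a cell when any of the 8 was detected gave 7 WT and 4 N1-CKO cells. Differences of the 8 probe sets ranged from -2.31 to 0.59, and groups overlapped in each.

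The 2 phosphatase genes had differences of opposite sign. Dusp6, which acts on ERK in the cytoplasm, was detected in 4 WT cells (2, 4, 5 and 8) and in 3 N1-CKO cells (7, 8 and 10). Log2 signals ran from 4.65 through a median of 8.08 to 13.64 in WT and from 4.65 through 4.65 to 11.66 in N1-CKO cells. The 4 WT cells stood above all N1-CKO cells, and the other 9 overlapped with them. The means of 8.85 ± 3.15 and 7.09 ± 3.09 differed by -1.76, within the spread between cells. The difference was -3.04 in the low 18S set and 0.29 in the high 18S set, with the sign turned. It was -1.003 where the Gapdh ratio did not exceed 3.

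Dusp4, a nuclear phosphatase of ERK and other MAP kinases, was the only member with a higher mean in N1-CKO cells. It was detected in 4 WT cells (1, 7, 8 and 11) and in 8 N1-CKO cells (1 to 6, 12 and 13). Its log2 signal had a lowest value of 4.65, a median of 8.14 and a highest value of 14.28 in WT cells, against 5.40, 12.21 and 14.58 in N1-CKO cells. The groups overlapped over most of this range, and the difference of 2.47 between the means of 8.34 ± 3.57 and 10.82 ± 3.34 lay within the SDs. It was 4.69 in the low 18S set, with detection in 2 of 8 WT and 7 of 8 N1-CKO cells, and -1.07 in the high 18S set, with 2 of 5 and 1 of 5. All 5 N1-CKO cells with a Gapdh ratio above 3 had detected Dusp4. Without the arrays above that limit it was found in 3 of 11 WT and 3 of 8 N1-CKO cells and differed by 0.99. The part of RNA quality in this difference was not tested.

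Phlda1, a pleckstrin homology domain gene induced by ERK, was detected in 2 WT cells (1 and 13) and in 0 N1-CKO cells. Its log2 signal was 11.62 in WT cell 1, 13.02 in WT cell 13 and at or below 8.61 in all others. The means differed by -0.63, well within the WT spread of 2.87. Fgf15 was detected in 7 WT cells (1 to 5, 7 and 12) and in 3 N1-CKO cells (1, 4 and 10). Log2 signals ran from 4.65 through a median of 11.71 to 14.14 in WT cells and from 4.65 through 6.18 to 14.59 in N1-CKO cells. The brightest cell of all was thus an N1-CKO cell, and the groups overlapped throughout. Means of 9.42 ± 4.01 and 7.52 ± 3.57 differed by -1.90, with -3.10 in the low and 0.01 in the high 18S set. Where the Gapdh ratio did not exceed 3, Fgf15 was found in 5 of 11 WT and 2 of 8 N1-CKO cells and differed by -0.69.

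**Figure D2:**
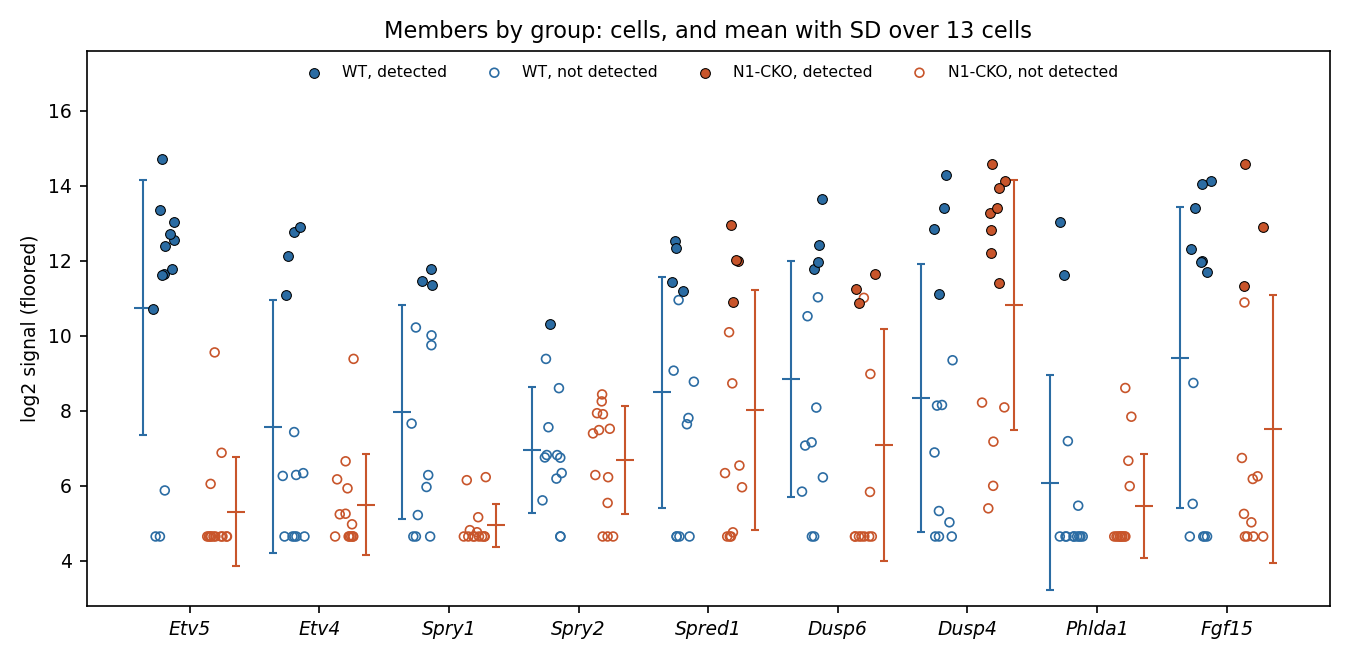
Log2 signal of each member (floored at 4.65) in WT (blue) and N1-CKO cells (orange), with filled circles for cells in which it was detected; dashes with bars are means and SDs over 13 cells. The differences of Etv5 (-5.45) and Spry1 (-3.03) exceed both SDs, and those of the other 7 members do not. Values below detection, many of them at the floor, enter these means and SDs.

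Over the 9 members, 8 had lower means in N1-CKO cells, and the median difference was -1.76. Markers of cell state shifted alike: 10 of 12 retinal progenitor genes, a list that includes Fgf15, had lower means, their median being -1.84, and so had 11 of 16 G1/S and DNA replication genes, with a median of -1.70. Their part in the shift of the members was not tested. Spry2 was left out of the counts that follow because it was detected in fewer than 2 cells. Of the other 8, 3 (Etv5, Etv4 and Spry1) had a difference of -2 or below, beside 6.92% of 8280 genes detected in at least 2 cells, and 1 (Dusp4) of 2 or above, beside 4.75%. Etv4 (-2.07) was close to this limit: its difference was -1.69 without WT cell 2, -1.78 without cell 3, -1.64 without cell 5 and -1.63 without cell 8, and -1.76 where the Gapdh ratio did not exceed 3, so that 2 of 8 would remain. Detection in at least 2 WT and 0 N1-CKO cells was found for Etv5, Etv4, Spry1 and Phlda1, 4 of 8, beside 5.13% of the 8280 genes. These 4 entered the count through WT cells alone. A gene detected in few cells meets this rule more easily than one detected in many, so the 2 shares are not like for like. Means were lower for 7 of the 8, beside 51.5%. Detection in at least 4 fewer N1-CKO cells held for 3 (Etv5, Etv4 and Fgf15), beside 6.73%, and in at least 4 more for 1 (Dusp4), beside 5.43%. Because the members were chosen with this comparison known, these shares are printed for scale only. In the high 18S set 5 of 9 members had lower means, with a median of -0.21, against 8 of 9 and -2.40 in the low 18S set. The 5 were Etv5, Etv4, Spry1, Spred1 and, with its sign turned, Dusp4 (-1.07). The share of all genes with lower means is not given within these sets, so the 2 counts have no such scale.

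More members were detected per WT cell than per N1-CKO cell. The median was 3 in WT cells, from 1 in cells 9, 10 and 12 to 6 in cell 8, which held Etv5, Etv4, Spry1, Spred1, Dusp6 and Dusp4. It was 1 in N1-CKO cells, from 0 in cell 11 to 3 in cell 4. The medians were 1 and 1 in the high 18S set and with detection at the 95th percentile, and 4 and 1 in the low 18S set.

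Etv5, itself in 76.9% of WT cells, was found with most other members. All 4 WT cells with Dusp6 (2, 4, 5 and 8) had Etv5, as was the case for 28.7% of the 823 genes detected in exactly 4 WT cells. These cells held 4 of the 5 brightest Etv5 signals, together with cell 11. The log2 signals of Etv5 and Dusp6 had a Spearman rho of 0.63 over the 13 WT cells. With 1 threshold for all arrays 6 of 6 WT cells with Dusp6 had Etv5, and with the 85th percentile 6 of 7. Etv4 was found together with Dusp6 in cells 2, 5 and 8, 3 of the 4 cells of each. Etv5 was present in 3 of the 4 Etv4 cells, and cell 3 had Etv4 with Etv5 at the floor. All 4 Dusp4 cells had Etv5 too, beside the same 28.7%, and rho between the signals was 0.33. Spry1 did not follow Etv5: 2 of its 3 cells had Etv5, and rho was -0.27. Fgf15 and Etv5 shared 5 cells, with a rho of -0.09, and Fgf15 and Dusp4 had a rho of -0.72 and shared 2 WT cells. These correlations describe cells whose arrays differ in brightness and carry no p. In N1-CKO cells Dusp6 was detected without Etv5 in each of its 3 cells. The same holds for any gene detected there, since Etv5 was detected in 0 N1-CKO cells.

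Most WT cells had Mki67, a gene expressed in dividing cells, and Etv5 was found with and without it. Mki67 passed in 11 WT cells and in 4 of the knockout group. Its detection alone does not separate cycling from other cells: WT cell 12 with Mki67 and WT cell 9 without it both had 3 G2/M genes detected. Of the 11 WT cells, 8 had Etv5 (72.7%, exact interval 39.0 to 94.0), and so had the 2 WT cells without Mki67 (7 and 9). Of the 4 N1-CKO cells with Mki67 (1, 2, 3 and 11), 0 had Etv5 (interval 0 to 60.2), nor had the 9 without. These intervals overlap, and 4 cells are few. The same 4 cells had a median of 9.5 of the 23 measured G2/M and mitosis genes detected (range 5 to 13), and the 11 WT cells 16 (range 3 to 21).

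Dusp6 had the highest correlation with G2/M genes among the members in WT cells. Its 4 WT cells all had Mki67, as was the case for 53% of genes detected in exactly 4 WT cells, and its rho with the mean log2 signal of the G2/M genes was 0.55. The same rho was 0.45 for Etv4, 0.43 for Spred1, 0.32 for Etv5 and Fgf15 and -0.33 for Dusp4. Of the 6 members detected in at least 4 WT cells, 1 reached 0.5, beside 11.6% of 3810 genes detected as often, a like share. In N1-CKO cells the 3 cells with Dusp6 all lacked Mki67. The 4 WT cells with Etv4 and the 4 with Spred1 also had Mki67, and Dusp4 was detected in 3 of 4 N1-CKO cells with Mki67 and in 5 of 9 without. Of the 7 WT cells with Fgf15, 6 had Mki67, and of the 3 N1-CKO cells 1.

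WT cells with many members detected had few photoreceptor transcripts. Of 10 rod and pan-photoreceptor genes, 7 WT cells (1 to 5, 7 and 8) had at most 2 detected, and these held 3 to 6 members. The other 6 WT cells had 4 to 6 photoreceptor genes and 1 to 3 members. The Spearman rho between the counts was -0.89 over the 13 WT cells, -0.89 in the low and -0.82 in the high 18S set, and -0.59 with detection at the 85th or the 95th percentile. In N1-CKO cells the sign was the opposite, with a rho of 0.67 over 13 cells, of which 7 had 1 member. A like rho of 0.65 was seen there between the number of members and the detection threshold of the array. It was 0.59 with G1/S genes, 0.53 with progenitor genes and 0.14 with G2/M genes. In WT cells the rho was 0.33 with the threshold, -0.27 with G1/S genes and 0.24 with progenitor genes. The progenitor list includes Fgf15, itself a member, so in both groups the rho with progenitor genes is in part that of a gene with itself. The 3 N1-CKO cells with at most 2 photoreceptor genes (5, 12 and 13) had 1 member each, and all had a Gapdh ratio above 3. Of 10 amacrine and horizontal genes, these cells had 0, 3 and 4 detected, beside a median of 1 in either group. N1-CKO cell 11, with 0 members, had 5 of them, and WT cell 7, with 4 members, had 4. The part of RNA quality or cell type was not tested. Etv5 alone was less divided by photoreceptor genes in WT cells, with 6 of 7 and 4 of 6 cells. Dusp6 was detected in 4 of 7 and 0 of 6. The cells with few photoreceptor genes were mostly on low 18S arrays, 6 of 7 against 2 of 6, and the number of G2/M genes had a rho of 0.51 with the number of members in WT cells. The relation was one of 5 computed in each group and was chosen after the values were seen.

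**Figure D3:**
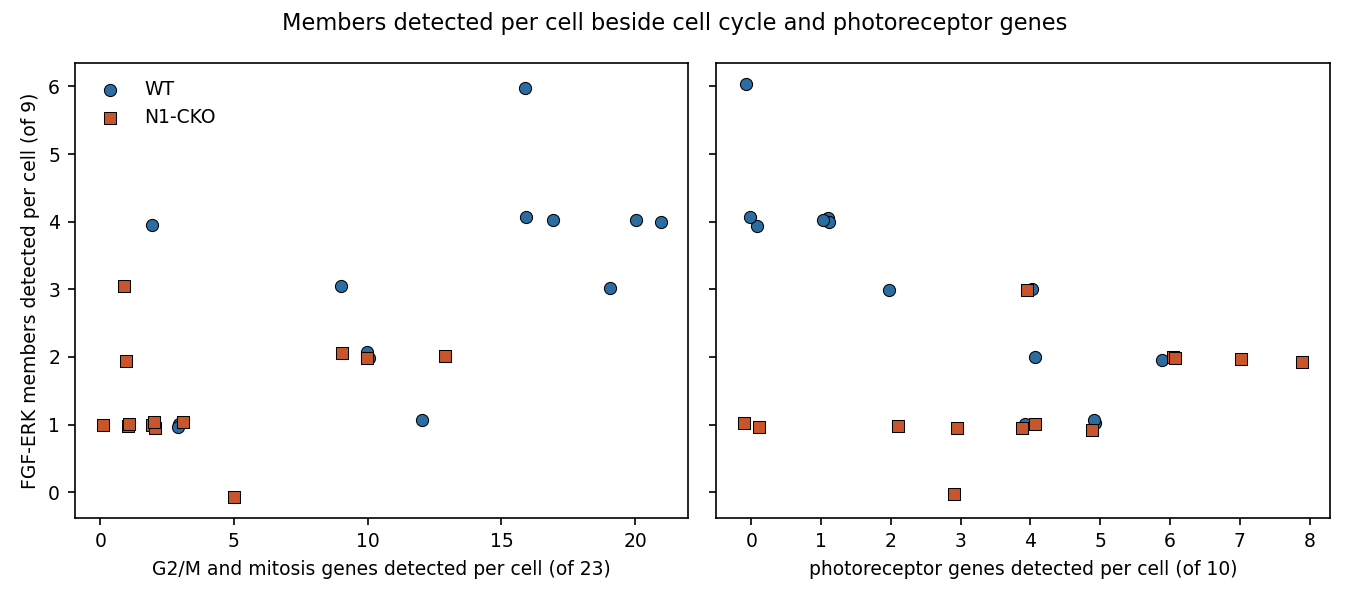
Number of the 9 members detected in each cell (vertical axis) against the number of G2/M and mitosis genes (left, of 23) and of photoreceptor genes (right, of 10) detected in the same cell; points are shifted slightly so that overlapping cells show. WT cells (blue circles) run from many members with few photoreceptor genes to few members with many, and N1-CKO cells (orange squares) stay at 0 to 3 members.

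The genes with signals most like that of Etv5 were ranked over all 26 cells and over WT cells alone. Among 4681 genes detected in at least 6 cells, the highest Spearman rho was that of Bub1b, a spindle checkpoint kinase (0.69, 9 WT and 0 N1-CKO cells). It was followed by Cyp1b1 (0.66), Phospho2 (0.65), the spindle gene Nusap1 (0.65) and the kinase subunit gene Cks1b (0.65). Over 26 cells such a ranking contains the difference between the groups. Over the 13 WT cells alone, among 3809 genes detected in at least 4 of them, the highest were Ext1, a heparan sulfate polymerase (0.80), Kctd9 (0.79), the kinase inhibitor gene Pkig (0.78), Tceal9 (0.78) and the sodium pump subunit Atp1b3 (0.76). None of the 5 was in both rankings. Dusp6 was the member ranked highest, at place 40 over 26 cells and at place 36 over WT cells, and Mki67 stood at places 637 and 1020.

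Other genes of the pathway mostly had small differences. In 5 further lists with 87 genes, 78 were measured, 9 were not analysed here and 35 were detected in at least 2 cells. Of these 35, means were lower in the knockout group for 25, beside 51.5% of all 8280 genes, and higher for 10. The median difference of the 35 was -0.75, beside -0.04 over all 8280 genes. A difference of -2 or below was found for 2 of the 35, Fgf9 and Ccnd1, beside 6.92%. For 1, Araf, it was 2 or above, beside 4.75%. Neither count exceeds its share over all genes. Detection in at least 4 more N1-CKO cells held for 3 of the 35 (Araf, Sos2 and Dusp5), beside 5.43%. For 0 of them it held in at least 4 fewer, beside 6.73%.

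Ligand and receptor transcripts were mostly below detection. Of 17 FGF and EGF family ligands 13 were detected in no cell, and of 9 receptors 5 were detected in no cell. In at least 2 cells, 2 of the 17 ligands and 2 of the 9 receptors were detected, beside 8280 of all 18193 genes. Low detection was thus common over all genes as well. The receptor Fgfr1 was found in 1 WT and 1 N1-CKO cell. Fgf9, a ligand made in the eye, was found in 4 WT and 1 N1-CKO cells, with means of 8.41 ± 2.89 and 6.11 ± 2.10 and a difference of -2.30. Such a count does not show that a receptor is absent, since a transcript under the detection threshold can still be expressed.

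Genes of the relay from receptor to ERK had 7 lower and 5 higher means among 12 used, with a median of -0.27. The kinase Araf was found in 2 WT and 7 N1-CKO cells and differed by 2.13, within its spread of 4.05 in N1-CKO cells. Map2k2, encoding MEK2, was detected in 5 and 7 cells (difference 1.51), the adaptor Grb2 in 5 and 3 (-1.47) and the RAS exchange factor Sos2 in 0 and 4 (1.32). Each of these differences lay within the spread between cells.

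Other negative regulators had 4 lower and 4 higher means among 8 used, with a median of -0.0048. The ERK phosphatase Dusp5 was found in 0 WT and 5 N1-CKO cells (1.29), the RAS GTPase-activating genes Rasa3 in 6 and 4 (-0.88) and Rasa1 in 5 and 5 (-0.86), and the stress-induced phosphatase Dusp1 in 5 and 6 (0.63). Sprouty genes outside the members, Spry3 and Spry4, were detected in no cell.

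Other ERK-responsive genes had lower means for 10 of 11 used, beside 51.5% of all 8280 genes, with a median of -0.85. Ccnd1, the D cyclin of retinal progenitors, was found in 13 WT and 10 N1-CKO cells and differed by -3.10, within its spread of 3.87 in N1-CKO cells. The immediate early gene Ier2 was detected in 6 and 3 cells (-1.40) and Fos in 10 and 8 (-1.09). Their transcriptional activator Srf was detected in 6 and 6 cells (0.34). Egr1, named after its values were seen, is an immediate early target of ERK. It passed in 13 WT cells and in 12 of the knockout group, with a difference of -0.11.

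**Figure D4:**
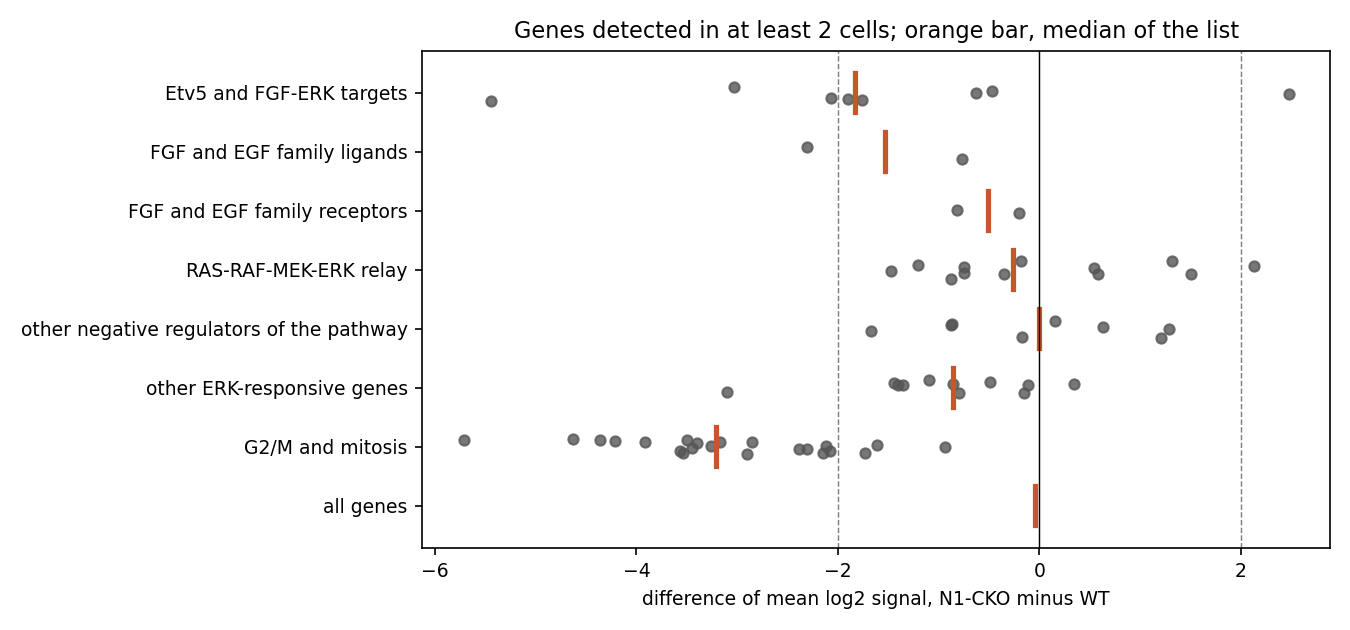
Difference of mean log2 signal (N1-CKO minus WT, horizontal axis) of each gene detected in at least 2 cells, by list; points are genes, orange bars medians and dashed lines differences of -2 and 2. The bar of the members lies at -1.83 over the 8 detected in at least 2 cells, that of G2/M genes at -3.21 and that of all genes at -0.04.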

How the data were processed

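Per the labels' protocols, cDNA of each picked cell was primed with oligo dT, tailed and PCR amplified. The deposited values are array intensity, which, per the submitters' processing notes, the authors computed with MAS5 (version not given in the sources used here). After trimming 2% from each end, the mean was 500.0 on every array; amounts of RNA per cell are thus not comparable. GEO's platform annotation gave 1 symbol for 34945 probe sets that are not controls, and 932 with several symbols were left out. Each gene is represented by its probe set of highest mean (log2, all cells). Log2 was taken after a floor at the pooled median of 25.02. Differences are means of N1-CKO minus WT cells and mix the number of positive cells with the level in them. Detection at a percentile of each array shows which transcripts were among the brightest 4504 probe sets, not how many were expressed.

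No animal or litter is named in the labels, so SDs are over cells, p-values were not computed, and the number of arrays limits precision. Members, lists, thresholds and the limit of 3 on the Gapdh ratio were chosen with earlier results of these data known. Named genes are the members, up to 4 genes with the largest differences per pathway list among those detected in at least 4 cells, Mki67, and the 5 genes most like Etv5 per ranking. Notch1, Kdr, Fgfr1, Spry3, Spry4, Egr1 and the genes most like Dusp4 fall outside this rule and were named after their values were seen. Alternatives were other detection limits, floors, probe set rules, medians, quantile normalization, array sets and leaving out each cell. Scripts (Python 3.11.15, pandas 2.3.3, scipy 1.17.1) were tested on simulated data for N1-CKO against WT over 45101 probe sets, where 200 of 200 changed probe sets were recovered. The simulated noise was far smaller than the real spread between cells, no floor was applied, and only brighter probe sets were changed. Recovery therefore checks the code and does not show which changes can be found in these cells.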

Additional observations from a re-analysis of the deposited data

How the results depend on the processing

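Etv5 was detected in 10 WT cells with other probe set rules, quantile normalization, 1 threshold for all arrays or the 85th percentile, and in 6 at the 95th percentile. N1-CKO cells were at 0 in each of these except at the 85th percentile, where 1 passed. Its difference ranged from -7.14 (medians over cells) to -2.38 (mean of all probe sets), and from -5.95 to -5.11 with 1 cell left out. In the high 18S set 5 members, Dusp4 among them, had lower means, with a median difference of -0.21. The medians of members detected per cell differed by 0 in that set, as they did at the 95th percentile. The number of WT cells with both Etv5 and Mki67 was 5 at the 95th percentile, 3 in the high and 5 in the low 18S set. With 1 cell left out, the number of members with lower means was 7 to 8, the median difference -2.08 to -1.36, the difference in members detected per cell 2 to 2.5, and the WT cells with Etv5 and Mki67 7 to 8. Dusp4 reversed in the high 18S set, to -1.07 and to 1 more WT than N1-CKO cell, the cause was not tested, and it was detected in equal numbers of cells (3 and 3) where the Gapdh ratio did not exceed 3. The other alternatives for the number of members with lower means gave 6 to 8. No paired analysis was possible because the cell numbers in the titles only name cells and the differences come from no test. Depth is not defined for these arrays: a transcript dimmer than the detection threshold cannot be told from an absent one.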

Other observations

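Genes with signals most like those of Dusp4, the member with a higher mean in N1-CKO cells, were looked up after its values were seen. Over 26 cells the highest Spearman rho was that of Ypel5 (0.71, detected in 5 WT and 8 N1-CKO cells), followed by the chromatin remodelling gene Smarce1 (0.67, 10 and 12 cells), the actin-binding gene Mtss1 (0.67, 5 and 8 cells), Anapc4, a subunit of the anaphase-promoting complex (0.66, 3 and 9 cells), and the POU factor gene Pou6f1 (0.66, 3 and 6 cells). Over the 13 N1-CKO cells Mtss1 (0.85) and Ypel5 (0.83) were again among the 5 highest, with R3hdm4 (0.84), the kinesin gene Kif1b (0.82) and Mapk1ip1l (0.81). Over the 13 WT cells the 5 highest were Wdr74 (0.85), Samd14 (0.83), Atad3a (0.79), Gtf3c2 (0.78) and Crmp1 (0.78). Etv5 had a rho of -0.13 with Dusp4 over 26 cells. These values describe likeness of signal only.

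Kdr, named after its values were seen, differed by -2.38 between the groups, with means of 9.75 ± 3.42 in WT and 7.37 ± 3.41 in N1-CKO cells.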
